A study of Drosophila melanogaster with 10 samples.

Results

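The genes described are COX7A and its partner subunits of cytochrome c oxidase, the complex IV of the mitochondrial respiratory chain. They were chosen by name, as the 9 genes COX7A, COX4, COX5A, COX5B, COX6AL, COX7C, COX8, cype and levy, among 11982 genes that have a probe set of their own on the array. Each has 1 such probe set except COX7C, which has 2, so 10 of 13647 single-gene probe sets belong to them. Complex IV takes electrons from cytochrome c, passes them to oxygen and pumps protons across the inner mitochondrial membrane. Its catalytic core is encoded in the mitochondrial genome and is surrounded by small subunits encoded in the nucleus, to which all the genes described here belong. In Drosophila, mutants of COX5A were found in screens for cell cycle control in the eye disc, and levy mutants lose neurons with age, so single nuclear subunits are known to matter in tissues of this fly.

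RNA was profiled in eye-antenna discs, the larval epithelia that form the adult eye and antenna, of Drosophila melanogaster 96 h after egg laying, with 20 to 30 whole discs per sample and 2 replicates for each of 5 genotypes. Whether replicates came from separate crosses is not stated in the labels, so p-values measure only the spread between these samples. All genotypes carried the driver ey-Gal4, which is active mainly in the eye part of the disc, so whole discs also hold cells in which the driver is weak or silent. The control carried UAS-GFP. The knockdown carried UAS-COX7a-RNAi (v106661), a hairpin against COX7A ("COX7a RNAi"). Discs called Delta here carried UAS-Delta, which encodes the Notch ligand, with UAS-GFP. Discs called Delta with COX7a RNAi carried UAS-Delta with the same hairpin, and those called Notch intra carried UAS-Notch[intra2], an intracellular form of the receptor. The hairpin was therefore compared with GFP at 1 UAS transgene per disc and with Delta plus GFP at 2, and a single hairpin line was used throughout. The title names COX7a loss of function and Notch gain of function.

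Values are log2 intensities as deposited, on which a difference of 1 is a doubling. Pearson's r across genes ran from 0.997 to 0.998 between arrays of the same genotype and from 0.989 to 0.997 otherwise. All 7 eye disc markers, from ato to dac, lay above the intensity floor of 4.66 on every array, as did the antennal genes Dll, dan and danr, while the antennal gene ss was under it in the Notch intra discs. Delta mRNA stood at 11.10 to 11.46 on the 6 arrays without the Delta transgene and at 12.72 to 13.26 on the 4 with it. These values are from its brighter probe set, used throughout. Its other probe set rose less, from 11.09 to 11.35 without the transgene to 11.45 to 11.74 with it. A gene was called at an adjusted p under 0.05 (limma, Benjamini-Hochberg over 8702 tested genes). The number of arrays limits the precision.

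COX7A mRNA was 7.19-fold lower in the knockdown discs than in GFP discs and 4.64-fold lower when Delta was expressed on both sides. In GFP discs COX7A stood at 13.41 and 13.32 log2 units and in COX7a RNAi discs at 10.50 and 10.54. In Delta discs it stood at 13.21 and 13.29, and in discs with Delta and COX7a RNAi at 10.88 and 11.20. Both Notch intra arrays gave 13.17. The 4 hairpin arrays lay far below the other 6, with no overlap, and the knockdown without Delta lay below the knockdown with it.

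**Figure D1:**
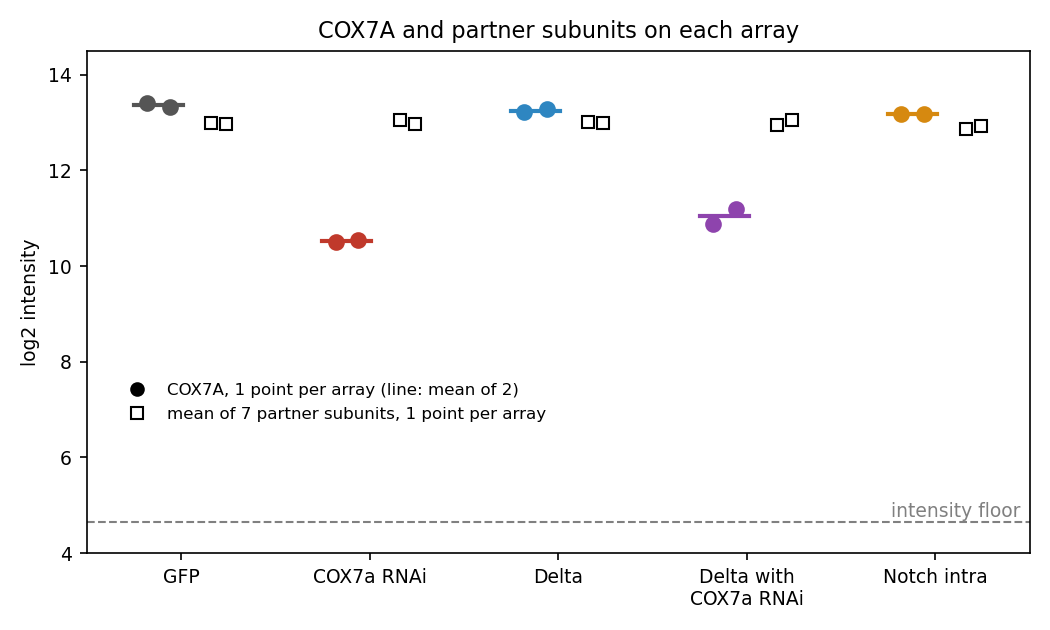
COX7A log2 intensity on each of the 10 arrays (filled points, with a line at the mean of the 2 replicates) beside the mean of 7 partner subunits on the same array (open squares). COX7A was at 10.50 to 11.20 on the 4 hairpin arrays and at 13.17 to 13.41 on the other 6, while the partner mean stayed between 12.86 and 13.05.

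COX7a RNAi lowered COX7A by a log2 change of -2.85 ± 0.09 (SE, 2 arrays against 2; limma adjusted p = 5.18e-06). This left 13.9% of the GFP intensity, with a 95% interval of 12.1% to 16.1%. In the Delta background the change was -2.21 ± 0.09 (adjusted p = 1.37e-05), which left 21.6% with an interval of 18.7% to 24.9%. Averaged over both backgrounds, 4 arrays against 4, the change was -2.53 ± 0.06 (adjusted p = 6.81e-07). In whole discs, fewer cells with the transcript and less transcript per cell cannot be told apart.

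COX7A was 0.52 ± 0.09 log2 units higher in discs with Delta and COX7a RNAi than in discs with COX7a RNAi alone, 1.43 times the intensity (adjusted p = 0.0422). In that comparison 0.896% of all tested genes were called. Of 9 other settings of the fit 6 kept the call, and of 10 fits on 9 arrays only the one without replicate 1 of Delta with COX7a RNAi did, with adjusted p-values from 0.00324 to 0.417 over them all. Without replicate 2 of Delta with COX7a RNAi the difference was 0.36, and without replicate 1 it was 0.68. The difference between both knockdown effects, tested as an interaction, was 0.63 ± 0.13 and did not pass (adjusted p = 0.0878), against 0.575% of tested genes called. Among the alternatives run it passed only without replicate 1 of Delta with COX7a RNAi, where it was 0.79 (adjusted p = 0.00829). None of the 8 partners was called in either comparison, and the 7 partners above the floor differed by -0.06 (COX4) to 0.05 (COX5B) between both hairpin genotypes.

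The array with the weaker COX7A knockdown also had less Delta mRNA. Replicate 2 of Delta with COX7a RNAi had COX7A at 11.20 and Delta at 12.72, against 10.88 and 13.26 for replicate 1. These genotypes also differ in the number of UAS transgenes, 1 with COX7a RNAi and 2 with Delta and COX7a RNAi, and transgene number and Delta cannot be told apart as the source of the difference in COX7A.

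Of the 9 genes, COX7A was the one called in each of the knockdown comparisons, and none of its 8 partners was. The background was 4.53% of tested genes called for COX7a RNAi against GFP, 3.75% in the Delta background and 8.03% for the average over both. The fall of COX7A is the intended effect of the hairpin and checks the labels. All 9 genes passed the filter on low values, COX6AL with 3 arrays above the floor and the others with 10. The partners are described in turn, first those that join the catalytic core early, then the other small subunits.

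COX4 and COX5A, which in mammals are among the first nuclear subunits to join the core, were not called under the hairpin. COX4 stood at 13.02 and 13.03 in GFP, 13.15 and 12.98 with COX7a RNAi, 13.08 and 13.00 with Delta, 12.99 and 13.03 with both transgenes, and 12.92 and 13.00 with Notch intra. Its log2 change with COX7a RNAi was 0.04 ± 0.06 against GFP and -0.03 ± 0.06 in the Delta background, and the arrays of the compared groups overlapped. COX5A stood at 12.81 and 12.79 in GFP, 12.88 and 12.77 with COX7a RNAi, 12.89 and 12.87 with Delta, 12.82 and 12.92 with both, and 12.73 and 12.79 with Notch intra. Its knockdown changes were 0.03 ± 0.05 and -0.01 ± 0.05, smaller than the gap between the 2 COX7a RNAi arrays.

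COX5B, a zinc-binding subunit on the matrix side in mammals, had the highest knockdown value among the 7 partners that were well above the floor, and it did not pass. COX5B stood at 12.62 and 12.55 in GFP and at 12.74 and 12.63 with COX7a RNAi, narrowly above. With Delta it stood at 12.69 and 12.67, with both transgenes at 12.67 and 12.79, and with Notch intra at 12.53 and 12.60. The log2 change was 0.10 ± 0.06 against GFP (adjusted p = 0.45) and 0.05 ± 0.06 in the Delta background (adjusted p = 0.703). Averaged over both it was 0.07 ± 0.04 (adjusted p = 0.323), with a 95% interval of -0.02 to 0.16.

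COX7C and COX8 are short subunits that cross the membrane once. COX7C stood at 13.06 and 13.03 in GFP, 13.05 and 13.03 with COX7a RNAi, 13.02 and 13.03 with Delta, 12.98 and 13.04 with both, and 12.88 and 12.94 with Notch intra. Its averaged knockdown change was -0.01 ± 0.02, with an interval of -4.38% to 3.44%, the narrowest of the partners. The other COX7C probe set lay between 4.23 and 4.75, above the floor on 2 arrays, and was not used. COX8 stood at 13.36 and 13.33 in GFP, 13.42 and 13.30 with COX7a RNAi, 13.41 and 13.37 with Delta, 13.32 and 13.40 with both, and 13.19 and 13.27 with Notch intra. Its averaged knockdown change was -0.01 ± 0.04, and its GFP values lay inside the range of its COX7a RNAi values.

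The gene cype encodes the fly COX6C and levy the fly COX6A. cype stood at 13.03 and 13.01 in GFP, 13.10 and 13.05 with COX7a RNAi, 13.00 and 12.99 with Delta, 12.96 and 13.10 with both, and 12.90 and 12.97 with Notch intra. Its averaged knockdown change was 0.04 ± 0.03 (adjusted p = 0.553), and the COX7a RNAi arrays lay just above the GFP arrays while the pair in the Delta background overlapped. levy stood at 13.02 and 12.99 in GFP, 13.04 and 13.00 with COX7a RNAi, 13.01 on both Delta arrays, 12.97 and 13.03 with both transgenes, and 12.89 and 13.00 with Notch intra, an averaged knockdown change of 0.00 ± 0.03. COX6AL, a gene related to levy by name, lay at 4.46 to 4.81 over the 10 arrays, around the floor, and its group mean was above the floor with Delta and COX7a RNAi alone (4.73). Its averaged knockdown value was 0.11 ± 0.07 (adjusted p = 0.428).

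**Figure D2:**
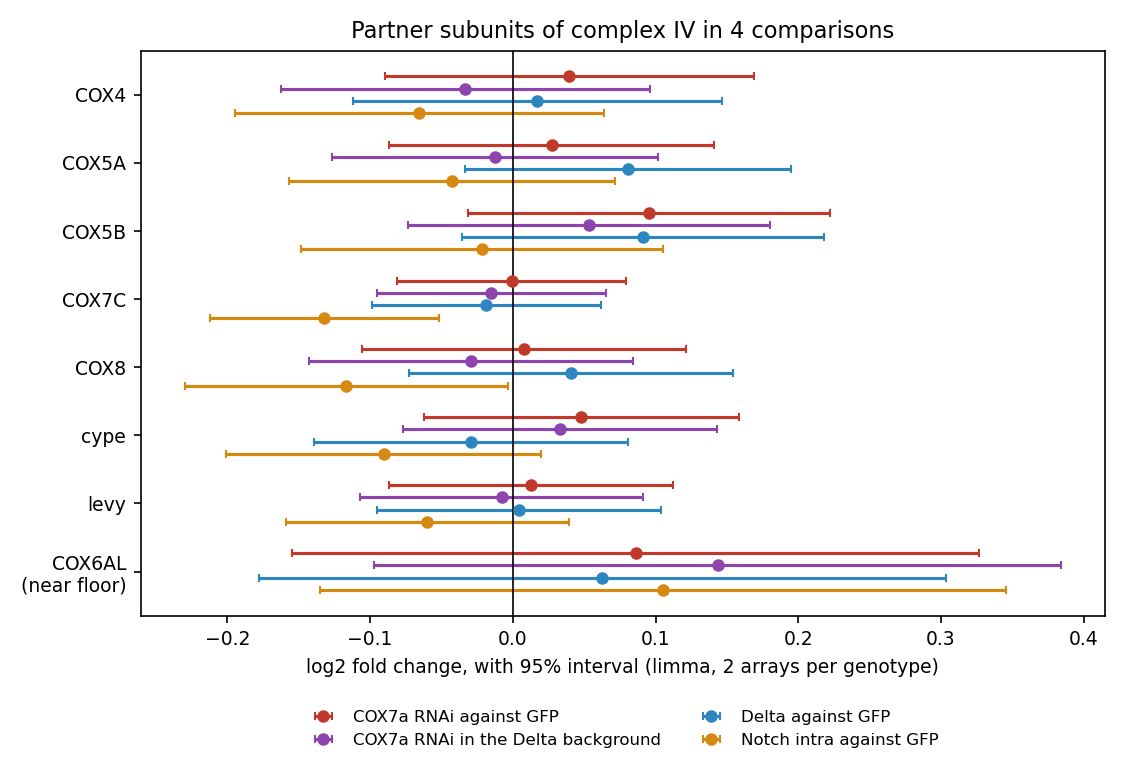
Log2 fold change of each partner gene with its 95% interval in 4 comparisons, from limma with 2 arrays per genotype. The intervals of both knockdown comparisons cross 0 for every partner shown, and those of COX7C and COX8 lie below 0 for Notch intra.

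Over the 7 partners above the floor, the knockdown changes ran from -0.00 to 0.10 log2 units against GFP and from -0.03 to 0.05 in the Delta background. In the first comparison 6 of the 7 were above 0 and in the second, which shares no array with it, 2 of the 7. For the average over both backgrounds the 95% intervals of the 7 genes reached from -0.09 at the lowest to 0.16 at the highest, while COX7A was at 17.3% of its reference. The median of the 9 genes was 0.00, that of all tested genes -0.01. A p that misses the threshold does not show that a gene did not change, and changes within the interval of each gene remain compatible with its values. The 7 partners lay at 12.53 to 13.42 on a scale whose highest value was 14.84. Whether the bright probe sets understate changes was not tested. COX7A in GFP discs, with a mean of 13.36, lay in the same range, so the same limit applies to the depth of its knockdown.

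Set against its partners on the same array, COX7A fell as far. The difference between COX7A and the mean of the 7 partners changed by -2.88 with COX7a RNAi against GFP and by -2.21 in the Delta background, which corresponds to 13.6% and 21.6% of the ratio in the reference discs. This difference was 0.42 and 0.35 on the GFP arrays, -2.56 and -2.42 with COX7a RNAi, 0.20 and 0.30 with Delta, -2.08 and -1.85 with both, and 0.31 and 0.24 with Notch intra.

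The partners moved with one another from array to array. Over the 10 arrays, Pearson's r between pairs of the 7 partners ran from 0.56 to 0.91 with a median of 0.76 over 21 pairs, while r between COX7A and a partner ran from -0.57 (COX5B) to -0.22 (COX8). Within genotypes, all 7 partners were higher on replicate 1 than on replicate 2 of COX7a RNAi, and all 7 were higher on replicate 2 of Delta with COX7a RNAi and of Notch intra. The largest gap between replicates was 0.16, that of COX4 with COX7a RNAi. The pairs share the arrays and their scaling, so these correlations are a description. COX7A varied mainly between the hairpin arrays and the others, so its r cannot show whether it otherwise moves with the partners. No r between other genes of like brightness is given for comparison.

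**Figure D3:**
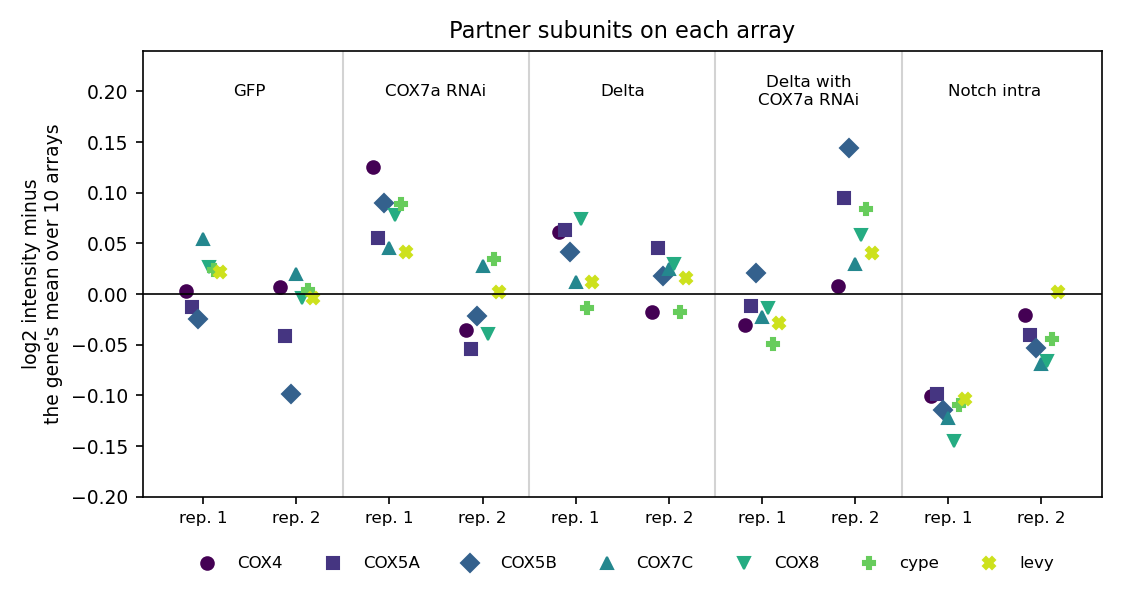
The 7 partner genes on each array, as log2 intensity minus the mean of that gene over the 10 arrays. Points of one array lie together, and those of Notch intra replicate 1 lie lowest for each of the 7 genes.

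Delta alone called none of the 9 genes, against 2.38% of tested genes. COX7A changed by -0.11 ± 0.09 (adjusted p = 0.619), an interval of -19.9% to 6.65%, and its Delta arrays lay just below its GFP arrays. The 7 partners ran from -0.03 (cype) to 0.09 (COX5B), with unadjusted p-values of 0.137 or more. Their median of 0.02 was that of all tested genes, 0.02.

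With Notch intra COX7C was lower than in GFP by a log2 change of -0.13 ± 0.04, 91.2% of the GFP intensity (adjusted p = 0.0426), with no overlap between the arrays given above. It was 1 of the 9 genes called, against 13.1% of tested genes, so the share is near the background. COX8 (-0.12 ± 0.05, adjusted p = 0.166), cype (-0.09 ± 0.05, adjusted p = 0.26) and COX7A (-0.19 ± 0.09, adjusted p = 0.209) did not pass, and the values of COX4, levy, COX5A and COX5B ran from -0.07 to -0.02. Values of all 7 partners above the floor and of COX7A lay below 0, with a median of -0.07 over the 9 genes against 0.03 for all tested genes. The lowest group mean of each of the 7 partners was that of Notch intra.

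The COX7C call was lost in 4 of 9 other settings, with adjusted p-values reaching 0.273, and when either array of GFP, Delta or Notch intra was dropped. COX7A passed when GFP and Notch intra were fitted alone (adjusted p = 0.0215) and without either array of Delta with COX7a RNAi (adjusted p = 0.0323 at both). Marker genes of the eye disc and of other parts of the sample also differed with Notch intra, in both directions. The mean log2 level of 4 glial markers was 6.83 to 7.09 with Notch intra and 7.56 to 7.91 elsewhere. They were moody, repo, loco and gcm, the last under the floor on all arrays. The mean of 6 muscle markers was 7.63 on both arrays against 8.20 to 9.47. For 4 tracheal markers it was 9.44 to 9.64 against 9.85 to 10.31. By limma 2 of 3 tested glial, 2 of 6 muscle and 2 of 4 tracheal markers were called lower, against 7.11% of tested genes. Not called were loco (-0.03), bt (-0.17), Mlc2 (-0.31), up (-1.10), Tm2 (-1.27), btl (0.03) and verm (-0.41). The mean of 4 antennal markers was 7.77 to 8.03 against 8.97 to 9.97, where Dll (-2.46) and ss (-3.95) fell while dan (0.12) and danr (0.19) did not pass. Of the 7 eye disc markers ey (0.37) and toy (0.40) rose and Optix fell (-0.75), and the mean of the 7 was 11.57 to 11.58 against 11.40 to 11.66. The mean of 5 haemocyte markers was 4.59 to 5.11 against 4.31 to 4.70, with eater and srp under the floor on all arrays. None of the 3 tested haemocyte markers was called by limma, with a median of 0.62 and 2 of 3 at an unadjusted p under 0.05. Their part in the values of the complex IV genes was not tested.

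COX7B, a further subunit in the probe annotation, stood at 13.13 and 13.04 in GFP and at 13.16 and 13.08 with COX7a RNAi, and its averaged knockdown change was 0.01 ± 0.04. The related genes COX4L, COX5BL, COX6AL2, COX6CL and COX7AL were under the floor on all 10 arrays, and so was COX7AL2, which was added after its values were seen. COX7AL, a relative of the target, ran from 3.69 to 4.17 and COX7AL2 from 4.07 to 4.40, and on no hairpin array did either reach the floor. COX6B and the subunits encoded in the mitochondrial genome were not analysed here.

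Of the 10 measured genes for assembly and copper delivery, a list that also holds COX7B, 1 was called in the average over both backgrounds and 0 in each background alone. With 8.03% of all tested genes called in that average, the share of the list is near the background. The called gene was Cox17, a copper chaperone that delivers copper towards the catalytic core. Cox17 stood at 9.62 and 9.53 in GFP and 9.79 and 9.81 with COX7a RNAi, and at 9.67 and 9.62 with Delta and 9.82 and 9.83 with both, so that the 4 hairpin arrays lay above the 4 controls. It rose by 0.20 ± 0.04 (adjusted p = 0.0169), 0.22 and 0.18 in the separate backgrounds (adjusted p = 0.0668 and 0.129). The call was lost without GFP replicate 2 (0.18, adjusted p = 0.0802) and without Delta replicate 2 (0.19, adjusted p = 0.0662).

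The other assembly genes did not pass. Cox10, which farnesylates haem for the oxidase, had an averaged knockdown value of 0.16 ± 0.05 (adjusted p = 0.0819), bsf, an RNA-binding protein of mitochondria, 0.18 ± 0.07 (adjusted p = 0.157) and Coa7 -0.14 ± 0.04 (adjusted p = 0.0854). Scox, a copper chaperone of the oxidase, was at -0.09 and Surf1, an assembly factor, at 0.00. The median of the 10 genes was 0.09, against -0.01 for all tested genes, and 4 of the 10 had an unadjusted p under 0.05, as did 21.1% of all tested genes. In the average over both backgrounds 3 of 4 tracheal markers were called lower, Gasp with -0.19, serp with -0.40 and verm with -0.42. Of 7 eye disc markers 1 was, so, with -0.15 (limma adjusted p of 0.00932 to 0.0254 for these genes). Among all tested genes 3.34% were called lower. The 6 muscle markers ran from -0.51 to -0.12, with 0 called and 2 at an unadjusted limma p under 0.05. The part of all these markers in the complex IV values was not tested.

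The other respiratory complexes were not called under the hairpin either. Of 48 measured genes of complexes I, II, III and V none was called by limma in either background or in the average, where the changes ran from -0.13 to 0.14. In the average 7 of the 48 had an unadjusted p under 0.05, against 21.1% of all tested genes, and 8.03% of all tested genes were called. The medians in that average were 0.02 for 26 genes of complex I, -0.04 for 3 of complex II, 0.11 for 7 of complex III and 0.00 for 12 of complex V. None of 7 regulators of mitochondrial gene expression was called by limma in the average, 2 of them at an unadjusted p under 0.05. Of these 2, bsf is also in the assembly list and was counted there too. Cchl, the haem lyase of cytochrome c, was at 0.03.

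With Notch intra, 2 of the 48 genes were lower, the complex I genes ND-15 (-0.32 ± 0.06, adjusted p = 0.00747) and ND-B17.2 (-0.19 ± 0.05, adjusted p = 0.0389), and the median of the 48 was -0.05. Among all tested genes 7.11% were called lower in this comparison, a larger share than 2 of 48. ND-15 stood at 11.80 and 11.81 in GFP and at 11.47 and 11.50 with Notch intra, clear of each other. TFAM, which packages mitochondrial DNA, rose by 0.18 ± 0.04 (adjusted p = 0.0354). It was 1 of 7 regulators of mitochondrial gene expression called, against 13.1% of all tested genes, so the share is near the background. The 7 ran from -0.14 (mtTFB2) to 0.23 (PolrMT). Without 1 array, ND-15 lost its call in 3 of 10 fits, ND-B17.2 in 5 and TFAM in 6, with adjusted p-values of up to 0.0575, 0.227 and 0.186. The TFAM call was also lost under both other scalings of the arrays (adjusted p = 0.0557 and 0.0563) and without a trend (0.0717), and the ND-B17.2 call with no filter (0.0509) and without a trend (0.0808).

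**Figure D4:**
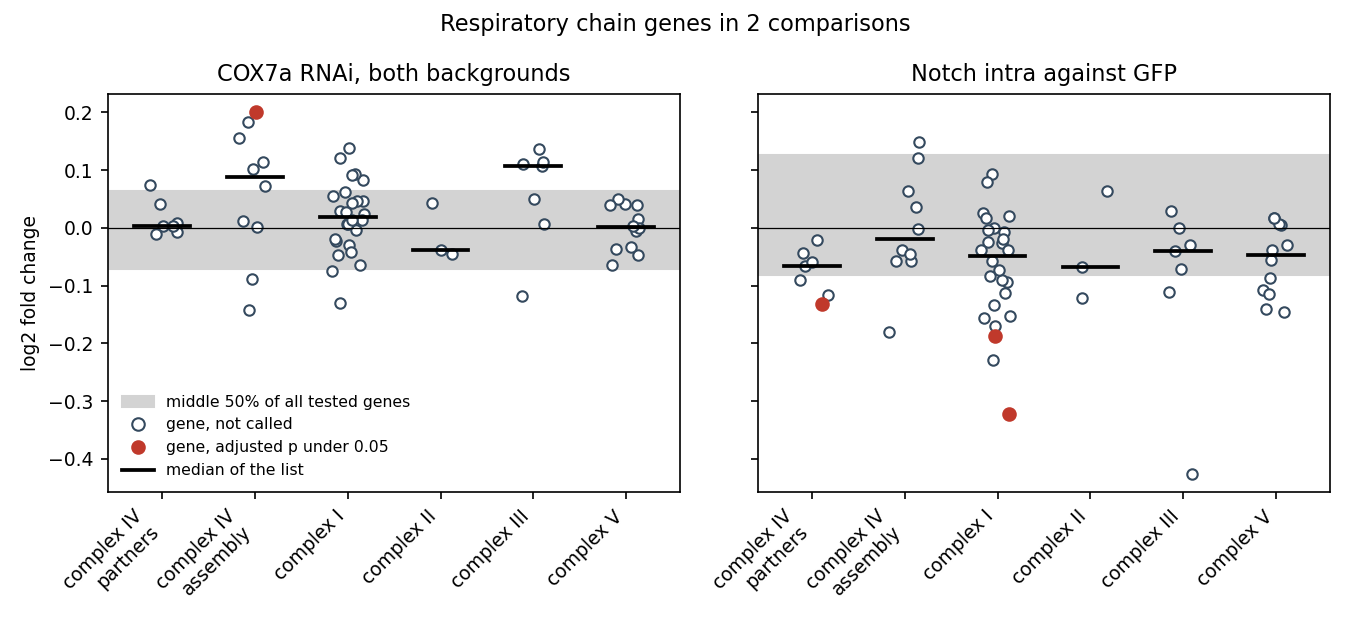
Log2 fold changes of respiratory chain genes by list, for COX7a RNAi averaged over both backgrounds (left) and Notch intra against GFP (right), with list medians as bars and the middle 50% of all tested genes in grey. Of the genes shown, Cox17 was called on the left, and COX7C, ND-15 and ND-B17.2 on the right.

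The genes whose pattern over the 10 arrays was most like that of COX7A, or most opposed to it, were taken from 847 genes with a range of at least 1 log2 unit. The highest Pearson's r were those of unc-5 (0.94), a netrin receptor gene, grn (0.92), a GATA transcription factor gene, CG42254 (0.92), CG11357 (0.80) and GstT4 (0.79). unc-5 stood at 11.04 to 11.29 on the 6 arrays without the hairpin and at 10.13 to 10.38 on the 4 hairpin arrays. The lowest r were those of CG13272 (-0.996), CG7841 (-0.99), Alr (-0.99), JhI-26 (-0.99) and CG6830 (-0.98). Alr, a sulfhydryl oxidase of the mitochondrial intermembrane space, had a mean of 9.50 in GFP, 10.53 with COX7a RNAi, 9.48 with Delta, 10.45 with both and 9.56 with Notch intra.

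Of the 847 genes, 3 had an r above 0.9 and 40 an r below -0.9. In each of the 10 named genes the 4 hairpin arrays were separate from the other 6, which the choice by correlation with COX7A favours. The gap was narrow for CG11357, at 9.68 on COX7a RNAi replicate 1 and 9.69 on Notch intra replicate 2. GstT4 was not called in the average over both backgrounds (limma adjusted p = 0.06). Between the replicates of Delta with COX7a RNAi, all 5 opposed genes were lower on replicate 2, where COX7A was higher and Delta mRNA lower. Of the 5 genes with the highest r, 1 was higher there. JhI-26 was at 8.95 and 8.17 on these replicates and CG13272 at 6.51 and 6.07. The COX7a RNAi replicates, with COX7A at 10.50 and 10.54, did not repeat this. On replicate 2 JhI-26 (8.66 and 9.14), CG6830 (7.85 and 8.23), Alr (10.47 and 10.58) and CG7841 (9.50 and 9.62) were higher. CG13272 (6.74 and 6.72) was barely lower. These genes were picked by their correlation on the same arrays, which favours such a match, so the values are a description with no test.

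**Figure D5:**
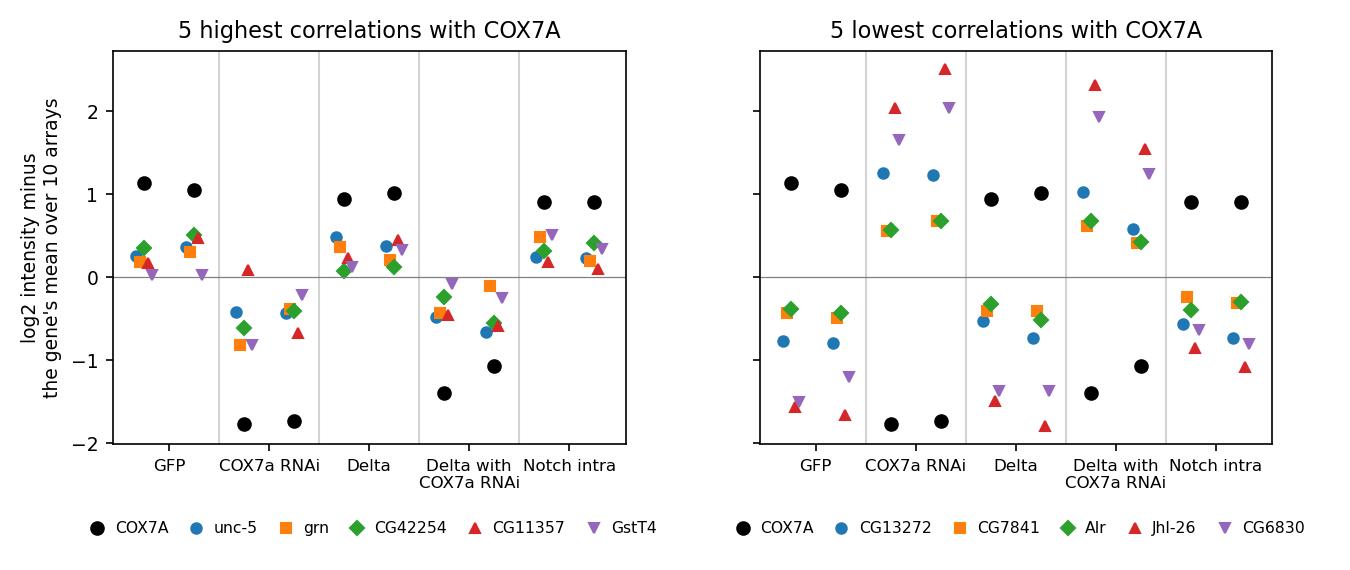
COX7A (black) and the 5 genes with the highest (left) and the 5 with the lowest (right) Pearson's r with it over the 10 arrays, as log2 intensity minus the mean of each gene. All 10 genes separate the 4 hairpin arrays from the other 6, and their ranges run from 1.13 (CG42254) to 4.31 log2 units (JhI-26).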

How the data were processed

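The deposited values are log2 intensities, 1 per probe set and array, with column medians of 5.15 to 5.21. The submitters' processing notes name RMA, Transcriptome Analysis Console (3.0.0.466) and Affymetrix Expression Console, without their roles. Where RMA equalised the arrays, it would remove a shift common to most genes. Per the labels' protocols, 50 ng of total RNA was amplified from the 3' end. Genome build, scan dates and detection calls were not used here.

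Of 18952 probe sets, 183 controls were left out. Each gene was represented by its single-gene probe set with the highest mean and tested if at least 2 arrays exceeded the 40th percentile of all values (4.66), which left 8702 genes. Members and lists were chosen with earlier results of these data known. limma 3.58.1 in R 4.3.3 fitted 1 mean per genotype over 10 arrays (5 residual degrees of freedom, eBayes with trend, two-sided, Benjamini-Hochberg). The fit was tested on simulated data. Named genes are all members, called genes of fixed pathway lists, the transgene's own gene, and the 5 highest and 5 lowest correlations with COX7A. Some list genes that were not called, and marker and related genes, are named outside this rule. Other settings were another or no filter, other priors, a replicate block, compared groups alone, 2 scalings, probe set means and each array left out.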

Additional observations from a re-analysis of the deposited data

How the results depend on the processing

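The knockdown of COX7A kept its direction and its call in all 9 other settings and all 10 fits without 1 array of each of the 3 knockdown comparisons, with log2 changes over the fits that left out an array of -2.89 to -2.80 against GFP and -2.37 to -2.05 in the Delta background. No partner was called in a knockdown comparison under any alternative run. Without 1 array, the COX7A interaction ran from 0.47 to 0.79 and the number of the 9 genes called in it from 0 to 1. The COX7A difference between both hairpin genotypes was 0.52 and not called without a trend (adjusted p = 0.0909), with compared groups alone (0.417) and with the replicate block (0.0526), each with 0 of the 9 genes called. Without 1 array it ran from 0.36 to 0.68 with 0 to 1 called. For Notch intra, 0 genes were called with no filter, without a trend, with the replicate block and with probe set means, 2 with compared groups alone (COX7A at -0.19), and 0 to 2 without 1 array (COX7A from -0.24 to -0.14). Deviations from group means, matched by replicate number, correlated at -0.22 to 0.38 between genotypes, and the main fit used no pairing. The highest value, 0.38, was that between both hairpin genotypes. Counts of all called genes varied by over 1.5 times, with 394 against 185 to 393 under other settings and 128 to 441 without 1 array for COX7a RNAi against GFP, and with 326 against 116 to 331 and 98 to 371 in the Delta background. For Notch intra they were 1144 against 994 to 1658 and 545 to 1252, for Delta 207 against 177 to 366 and 74 to 244, for the interaction 50 against 35 to 62 and 16 to 42, for the average over both backgrounds 699 against 526 to 714 and 353 to 708, and for the hairpin genotypes 78 against 10 to 87 and 38 to 106. Setting COX7A against its partners, all probe sets as rows, and leaving COX7A out were added after the data were seen.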
